A study of Mus musculus with 36 samples.

Results

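The genes that make cholesterol and fatty acids were followed through 36 libraries of Nf1-/- DNp53 transformed mouse astrocytes. The set holds 31 genes, listed by their known roles and found by symbol among the 46078 genes of the deposited table. It has 18 enzymes of sterol synthesis, of which 7 lead to farnesyl diphosphate and 11 lead from squalene to cholesterol. A further 5 genes control the pathway, 2 move sterols, and 6 make, desaturate or handle fatty acids. All astrocytes lacked Nf1, the gene of a protein that restrains Ras, and carried DNp53, a dominant-negative p53. No line with intact Nf1 and p53 was among the samples, so every comparison is between transformed lines. The lines came from 5 litters, called lots 6, 7, 8, 11 and 12, with 1 female (F) and 1 male (M) line per lot. Each line gave 3 libraries in lots 6 and 12 and 4 libraries in lots 7, 8 and 11. Cells were grown in DMEM/F12 with fetal bovine serum, which contains cholesterol and fatty acids. The age of the animals is not given in the sources used here.

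Cholesterol is built from acetyl-CoA through mevalonate, farnesyl diphosphate and squalene, and fatty acids are built from the same acetyl-CoA by carboxylation and chain growth. Both branches are driven by the sterol regulatory element binding proteins (SREBPs), which are made as membrane precursors. When membrane sterol is low, the escort protein Scap carries the precursors to the Golgi for cleavage, and when it is high the Insig proteins hold them in the endoplasmic reticulum. SREBP-2, from Srebf2, is best known for the sterol genes and SREBP-1c, from Srebf1, for the fatty acid genes, and astrocytes are a main source of cholesterol in the brain. Cleavage of SREBPs is not visible in mRNA levels, and protein, sterol and lipid amounts were not measured.

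Promoters are shown for 4 genes that changed together between libraries, as described at the end of these results. Each stretch holds the 250 bases before the RefSeq start site on the mouse build GRCm38.p6, written in the direction of transcription. Capitals mark 2 motifs on either strand: TCACNCCAC, a form of the sterol regulatory element bound by SREBPs, and CCAAT, the core of the site of NF-Y, a factor known to act with SREBPs. CCAAT read on the other strand is ATTGG, and neighbouring copies can overlap. Hmgcs1 lies at chr13:119690101-119690350 on the plus strand, Msmo1 at chr8:64733579-64733828 on the minus strand, Insig1 at chr5:28071162-28071411 on the plus strand, and Fasn at chr11:120824548-120824797 on the minus strand. In the GENCODE M21 annotation Msmo1 begins at base 64733792 and Insig1 at base 28071363, both within the stretches shown. Part of each of these stretches thus lies inside the annotated gene, including the marked sites of Msmo1.

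Hmgcs1: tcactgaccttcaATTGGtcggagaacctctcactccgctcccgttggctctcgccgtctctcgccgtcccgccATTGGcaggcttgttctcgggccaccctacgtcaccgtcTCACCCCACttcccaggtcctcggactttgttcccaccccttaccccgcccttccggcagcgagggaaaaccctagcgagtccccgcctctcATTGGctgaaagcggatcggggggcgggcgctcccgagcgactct

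Msmo1: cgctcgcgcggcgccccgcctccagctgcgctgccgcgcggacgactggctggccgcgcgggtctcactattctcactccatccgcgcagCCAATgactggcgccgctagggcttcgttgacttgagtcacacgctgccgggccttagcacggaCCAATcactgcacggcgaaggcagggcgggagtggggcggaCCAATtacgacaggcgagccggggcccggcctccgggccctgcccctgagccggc

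Insig1: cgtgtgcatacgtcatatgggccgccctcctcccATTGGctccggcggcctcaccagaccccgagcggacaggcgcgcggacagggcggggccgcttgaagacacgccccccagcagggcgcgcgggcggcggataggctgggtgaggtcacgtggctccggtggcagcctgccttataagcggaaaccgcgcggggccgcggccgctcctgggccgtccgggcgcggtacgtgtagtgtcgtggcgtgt

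Fasn: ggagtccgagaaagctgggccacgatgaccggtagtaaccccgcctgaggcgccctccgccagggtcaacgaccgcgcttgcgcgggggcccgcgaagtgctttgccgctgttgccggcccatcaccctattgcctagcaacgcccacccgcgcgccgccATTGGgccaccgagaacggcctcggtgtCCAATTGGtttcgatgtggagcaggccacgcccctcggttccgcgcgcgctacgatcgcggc

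The Hmgcs1 stretch holds TCACNCCAC on the plus strand from base -137 to base -129, counted from the start site, and CCAAT at 3 places. In Msmo1 and Fasn CCAAT also occurs at 3 places each, and in Insig1 at 1. Insig1 holds in addition the E box CACGTG, a motif that SREBP-1 and many other factors can bind, from base -101 to base -96. RefSeq entries were found for 25 of the 31 genes, with 33 start sites, and none was found for Fdps, Fdft1, Sqle, Stard4, Scd1 and Scd2. CCAAT occurred in 20 of the 33 promoters, among them 14 of the 18 promoters of sterol synthesis enzymes, against 33.8% of all 32851 mouse promoters of this length. In the fatty acid branch 1 of 4 promoters held it, that of Fasn. TCACNCCAC occurred in 1 of the 33, against 1.05% of all promoters, CACGTG in 6, against 6.02%, and the Sp1 motif GGGCGG in 24, against 32.7%. GGGCGG was in 15 of the 18 promoters of sterol synthesis enzymes and in 1 of the 4 of the fatty acid branch. These 4 motifs were chosen after the count table had been seen, and a match or its absence says nothing about binding.

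Expression was measured by BRB-seq, which tags the 3' ends of polyadenylated transcripts with a barcode per sample and pools them for library construction. A library held between 4358098 and 7562901 counts, with a count in 12654 to 14177 genes. Levels are scaled counts (CPM), the share of a gene in the counts of its library times 1e6, on library sizes scaled by the TMM method. In single libraries 3 counts correspond to 0.385 to 0.716 CPM. Nf1 was at 0.239 to 4.00 CPM in the female and 0 to 4.43 CPM in the male libraries. Reads of the 3' end outside a deleted part would be counted, so these levels do not check the deletion. Ddx3y, on the Y chromosome, was at 3.65 to 29.3 CPM in the male and at 0 to 1.01 CPM in the female libraries. Xist was at 0 to 0.289 CPM in the male libraries, and the female libraries of lots 7, 11 and 12 held 1.64 to 7.65 CPM. It was low in the lot 6 female line, at 0 to 0.642 CPM, and in 1 library of the lot 8 female line, at 0.182 CPM. Of 12 astrocyte markers, 5 had a mean over 1 CPM, led by Gja1 at 144 CPM, whereas Gfap was at 0.135 CPM, Aqp4 at 0.258 CPM and Ntsr2 at 0. Whether the libraries of 1 line came from separate cultures is not labelled, so a p-value between single lines rests on spread that may be only technical. With 1 line per sex and lot, a difference between sexes in 1 lot cannot be told apart from a difference between 2 lines. In bulk RNA, fewer cells of a type and less RNA per cell cannot be told apart either.

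The genes of both branches were expressed in all 10 lines, apart from a few near the counting floor. Fdps, which makes farnesyl diphosphate, was at 0 to 1.25 CPM, with 37 counts in all, and was not tested. The table does not say how reads of a gene with near-identical copies or overlapping genes were assigned, and Fdps overlaps another annotated gene on its strand. Lpin1, a phosphatidate phosphatase, was at 0 to 3.17 CPM, and Idi1, the isopentenyl isomerase, at 0 to 4.13 CPM. Of the 30 members tested, 17 (56.7%) differed among the 10 lines at an adjusted p under 0.05 by edgeR's quasi-likelihood test with Benjamini-Hochberg adjustment. The background share over all 12173 genes was 51.8%, so the members varied among lines about as often as genes in general. At an unadjusted p under 0.05 it was 18 members, beside 57.6% of all genes. Msmo1, the sterol C4 methyl oxidase, was among the steadiest, with line means from 127 to 158 CPM. Scd1, the stearoyl-CoA desaturase, ranged from 3.98 to 39.5 CPM and Srebf1 from 1.17 to 18.1 CPM. Without lot 6 the count fell to 12 of 30, and Srebf1, Tm7sf2, Mvd, Acat2 and Scd2 no longer passed. Over all genes the count went from 6304 to 4920 in that fit.

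**Figure D1:**
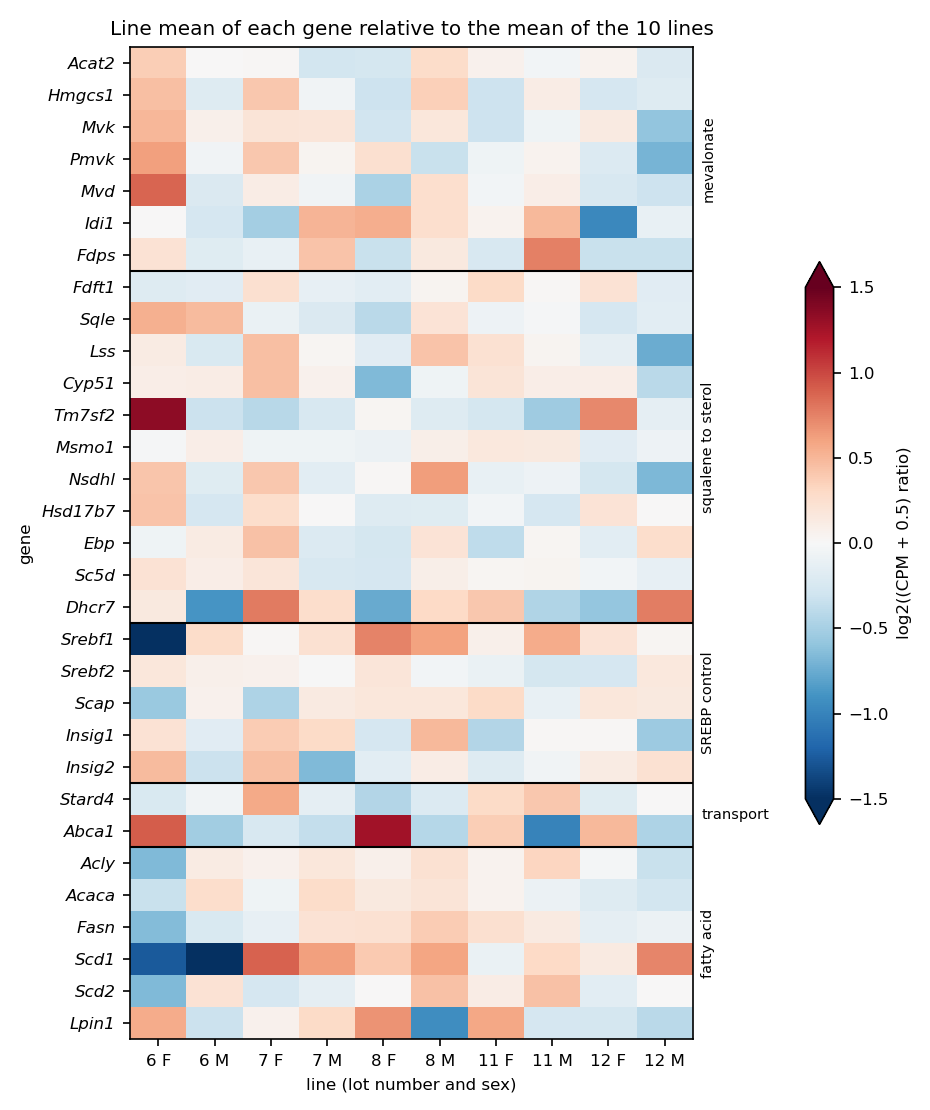
Mean of each member in each of the 10 lines (columns, lot number and sex) as the log2 ratio of CPM + 0.5 to the mean of the lines, with members ordered by role. Colours saturate at a log2 ratio of 1.5. The lot 6 female line stands out with high Tm7sf2 and Mvd and low Srebf1, and both lot 6 lines have the lowest Scd1.

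Across litters, no member passed the test between female and male lines. Libraries of a line were summed and the 10 sums compared with the litter as a block. By edgeR's quasi-likelihood test 0 of 30 members passed, as did 0 of 12010 genes (0.0%), and at an unadjusted p under 0.05 it was 3 members, beside 841 genes (7.0%). DESeq2 called 56 genes, none of them a member. The smallest p belonged to Abca1, the exporter of cholesterol to apolipoproteins, whose female mean of 2.94 ± 1.31 CPM stood over a male mean of 1.01 ± 0.242 CPM (SD, n = 5 lines each). Its log2 ratio of female to male was 1.51 ± 0.38 (SE; edgeR adjusted p = 0.695), and the female line was higher in 5 of 5 lots. Such a run occurred in 4.62% of all genes. Abca1 was low, between 0 and 6.86 CPM per library. With limma voom on all libraries its adjusted p was 0.0471, the only member called there, against 0.695 by edgeR. That voom fit called 491 of all genes. Scd2, a desaturase of brain, was higher in the male line of all 5 lots, as were 5.12% of all genes, with a log2 ratio of -0.40 ± 0.13 (edgeR adjusted p = 0.695). Pmvk, phosphomevalonate kinase, gave 0.38 ± 0.14 and Tm7sf2, a sterol C14 reductase, 0.59 ± 0.29, each with an edgeR adjusted p of 0.695.

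Within litters, the members that passed differed from lot to lot. In lot 6, 10 of 30 members (33.3%) passed, 6 of them higher in the female line and 4 lower, beside a background of 27.6% of all genes (13.5% higher and 14.0% lower). In lot 7, 2 members were higher in the female line and 1 was lower (background 10.8%, with 5.41% higher and 5.42% lower). In lot 8, 4 members were lower and none higher (background 11.4%, with 6.41% higher and 4.99% lower). Lot 11 had none (background 4.33%, with 1.52% higher and 2.81% lower), and lot 12 had 1 higher and 1 lower (background 3.8%, with 1.74% higher and 2.06% lower). All these counts are from edgeR's quasi-likelihood test over 12173 genes. With both directions pooled, the members' shares lie near the background in every lot. By direction lot 8 departed from it, with 13.3% of the members called lower beside 4.99% of all genes. In lot 11, 4 members had an unadjusted p under 0.05, beside 15.6% of all genes, and DESeq2 called 1 member and 643 of all genes. Single libraries moved these counts: 6 members passed in lot 6 without male replicate 1, and 1 in lot 8 without replicate 1 of either line and 2 without male replicate 4. In lot 11 it was 2 without male replicate 3. In lot 12 it was 0 without female replicate 3 or male replicate 1, 1 without female replicate 1, female replicate 2 or male replicate 2, and 0 when only the libraries of that lot were fitted. Of the 17 sterol synthesis enzymes tested, 15 had a log2 ratio above 0 in lot 7, with a median of 0.36. Of the 17, 1 (5.88%) passed there as higher, beside 5.41% of all genes. In lot 8, 14 had a ratio below 0, with a median of -0.47, and 4 (23.5%) passed as lower, beside 4.99% of all genes. Over all genes the medians were 0.01 and 0.00. Under scaling by library totals alone, the share of all calls that were higher in the female line went from 49.0 to 68.9% in lot 6, 50.0 to 60.2% in lot 7, 56.2 to 68.6% in lot 8 and 45.8 to 57.2% in lot 12. The median of all genes in lot 6 then moved from 0.06 to 0.29 (log2), with 11 members higher and 3 lower, so lot 6 ratios hold relative to that shift. In lot 8 this scaling left 2 members lower and 1 higher, Acat2 (adjusted p 0.0599) and Ebp (0.0557) losing their calls.

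**Figure D2:**
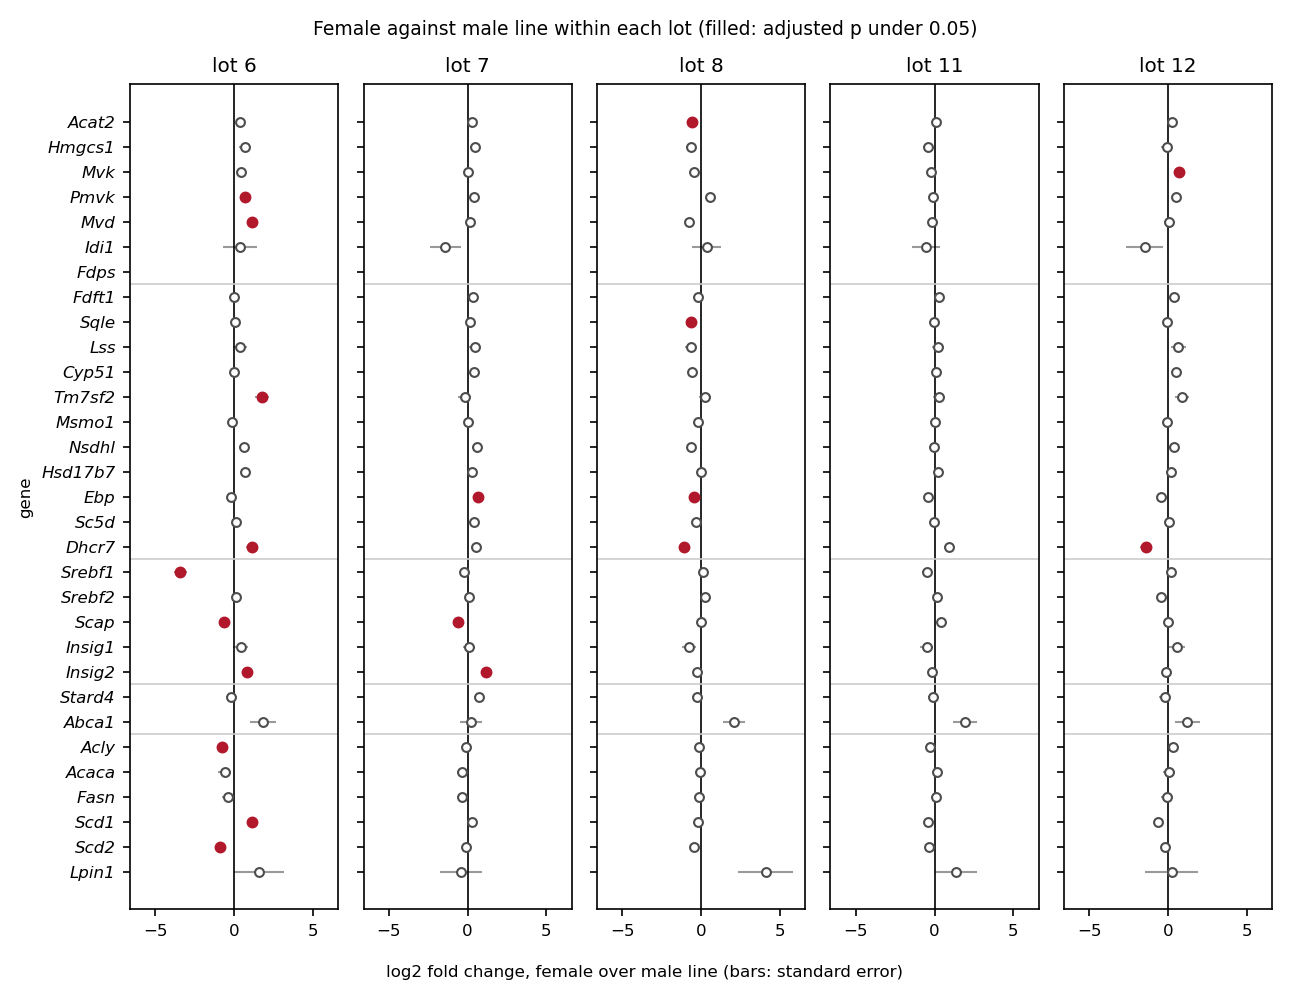
Log2 fold change of the female over the male line within each lot for each member (points, with standard error as bars), with filled points for an edgeR adjusted p under 0.05. In lot 6 filled points lie on both sides of 0, from Srebf1 at -3.42 to Tm7sf2 at 1.74, and in lot 8 all 4 lie below 0. Fdps was not tested and has no point.

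Among the enzymes that lead to farnesyl diphosphate, Mvd, the mevalonate diphosphate decarboxylase, differed most in lot 6. Its 3 female libraries held 29.9, 21.3 and 29.9 CPM and the male ones 10, 10.4 and 16.6 CPM. The groups did not overlap. The means were 27.04 ± 4.94 and 12.3 ± 3.68 CPM (SD, n = 3), and the log2 ratio was 1.12 ± 0.31 (edgeR adjusted p = 0.00514). The lot 6 female line had the highest Mvd of the 10 lines, as it had for Acat2, Hmgcs1, Mvk and Pmvk. Acat2, Hmgcs1 and Mvk did not pass in lot 6, and Idi1 and Fdps were highest in other lines. The share of all genes that were highest in the lot 6 female line was not computed. In lots 7 and 8 the Mvd libraries overlapped between the sexes. They held 17.8, 9.45, 15.9 and 19.5 CPM (female) and 11.7, 17.2, 16.99 and 9.84 CPM (male) in lot 7, and 10.7, 7.42, 14.2 and 8.79 CPM and 20.5, 15.4, 11.3 and 22.1 CPM in lot 8. Lots 11 and 12 overlapped as well, with 9.70, 13.1, 11.8 and 21.7 CPM against 12.5, 16.9, 15.9 and 16.7 CPM in lot 11 and 14.8, 10.7 and 11.1 CPM against 12.5, 8.41 and 13.9 CPM in lot 12. None of these 4 lots passed for Mvd.

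Pmvk was also higher in the female line of lot 6, at 79.3, 82.01 and 85.05 CPM against 49.3, 47.3 and 58.6 CPM (0.67 ± 0.25, edgeR adjusted p = 0.0464). This call was lost when any of the 6 libraries was left out, with adjusted p from 0.0547 to 0.141. Acat2, the cytosolic acetoacetyl-CoA thiolase, was lower in the female line of lot 8. It held 62.02, 68.04, 65.9 and 64.4 CPM there and 102, 94.96, 96.98 and 86.6 CPM in the male line, with no overlap (-0.55 ± 0.16, edgeR adjusted p = 0.0205). Without replicate 1 of the female line the adjusted p was 0.0526, and without replicate 1 of the male line 0.0588. Mvk, mevalonate kinase, was higher in the female line of lot 12, at 54.5, 73.7 and 59.1 CPM against 28.8, 49.8 and 34.4 CPM (0.72 ± 0.21, edgeR adjusted p = 0.0406). With any of 4 single libraries left out Mvk no longer passed, the adjusted p reaching 0.272 without male replicate 1. Hmgcs1, the HMG-CoA synthase at the head of the pathway, passed in no lot, with log2 ratios from -0.67 ± 0.31 in lot 8 to 0.66 ± 0.35 in lot 6.

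From squalene on, Dhcr7 passed in more lots than any other enzyme, 3 of 5. It makes cholesterol from 7-dehydrocholesterol in the last step of its route, and the direction of its sex difference turned from lot to lot. In lot 6 the female libraries held 9.63, 11.96 and 10.01 CPM and the male ones 4.82, 3.72 and 6.13 CPM. Lot 7 held 13.3, 19.2, 12.96 and 21.02 CPM (female) and 10.01, 13.7, 11.8 and 10.5 CPM (male), which overlapped. In lot 8 the order was the other way, at 4.05, 4.80, 6.19 and 6.51 CPM in the female and 13.9, 8.47, 10.7 and 13.9 CPM in the male line. These 2 groups did not overlap, nor did those of lot 6. In lot 11 the values were 10.5, 13.3, 8.35 and 18.8 CPM (female) and 2.37, 4.83, 10.2 and 9.81 CPM (male). Lot 12 held 6.28, 7.88 and 4.38 CPM in the female and 16.5, 18.2 and 14.6 CPM in the male line, the widest gap of the 5 lots. The line means of lot 12 were 6.18 ± 1.75 and 16.4 ± 1.82 CPM (SD, n = 3), those of lot 8 5.39 ± 1.16 and 11.8 ± 2.65 CPM (SD, n = 4), and those of lot 6 10.5 ± 1.25 and 4.89 ± 1.21 CPM (SD, n = 3). The log2 ratios were 1.10 ± 0.36 in lot 6 (edgeR adjusted p = 0.0207), -1.11 ± 0.32 in lot 8 (edgeR adjusted p = 0.0173) and -1.41 ± 0.35 in lot 12 (edgeR adjusted p = 0.016). In lots 7 and 11 Dhcr7 did not pass, at 0.53 ± 0.30 and 0.91 ± 0.31 (edgeR adjusted p = 0.288 and 0.0919). The test that the difference was alike in all lots gave an edgeR adjusted p of 3.56e-05. Single libraries decided each call: the adjusted p rose to 0.104 without male replicate 2 in lot 6, to 0.0587 without female replicate 1 in lot 8 and to 0.111 without female replicate 3 in lot 12.

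Ebp, the sterol isomerase that is X-linked in mouse, likewise changed sides. Lot 7 held 126, 125, 129.6 and 122 CPM in the female and 75.5, 91.8, 88.6 and 64.8 CPM in the male line, with every female library higher (0.65 ± 0.15, edgeR adjusted p = 0.00216). Lot 8 held 70.8, 93.3, 90.4 and 52.6 CPM (female) and 108, 108, 104 and 106 CPM (male), with every female library lower (-0.47 ± 0.15, edgeR adjusted p = 0.0294). The lot 8 call was lost without female replicate 1 (adjusted p 0.0809) or 4 (0.155), and without male replicate 1 (0.0614), 2 (0.062) or 4 (0.0532). The difference between lots had an edgeR adjusted p of 0.00016, and 0.775 without lot 7. In lots 11 and 12 Ebp had log2 ratios of -0.42 ± 0.15 and -0.42 ± 0.17 and did not pass (edgeR adjusted p = 0.109 and 0.187). Nsdhl, the other X-linked enzyme of the route, passed in no lot.

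Tm7sf2 and Sqle each passed in 1 lot. Tm7sf2 was at 15.3, 18.9 and 16.3 CPM in the lot 6 female line and at 3.15, 3.72 and 8.07 CPM in the male line (1.74 ± 0.44, edgeR adjusted p = 0.00266). The means were 16.8 ± 1.86 and 4.98 ± 2.69 CPM (SD, n = 3), and every female library of that lot lay above every library of the other lines. Elsewhere the female and male libraries were 5.87, 5.78, 1.72 and 5.21 CPM against 6.93, 3.62, 6.83 and 3.74 CPM in lot 7 and 4.29, 6.11, 8.73 and 6.86 CPM against 6.96, 5.78, 7.65 and 1.60 CPM in lot 8. Lot 11 had 6.52, 3.42, 4.70 and 6.05 CPM against 5.22, 4.65, 2.65 and 4.36 CPM, and lot 12 13.02, 6.39 and 12.97 CPM against 6.73, 6.13 and 4.32 CPM. All 4 of these lots overlapped. Tm7sf2 shares sequence on its strand with Vps51, and how reads of the overlap were assigned is not given in the sources used here. Sqle, squalene epoxidase, was lower in the female line of lot 8, at 59.2, 56.9, 75.9 and 76.5 CPM against 115, 99.6, 87.6 and 108 CPM (-0.61 ± 0.14, edgeR adjusted p = 0.00295), and passed with each library left out. Both lot 6 lines had high Sqle, at 129 ± 14.9 CPM and 124 ± 13.6 CPM (SD, n = 3), against line means of 67.1 to 103 CPM in the other lots. Fdft1, Lss, Cyp51, Msmo1, Hsd17b7 and Sc5d, which make squalene, lanosterol and the later sterols, passed in no lot. Their smallest edgeR adjusted p values were 0.067 for Hsd17b7 in lot 6 (0.71 ± 0.29), 0.0753 for Cyp51 in lot 8 (-0.59 ± 0.22) and 0.118 for Sc5d in lot 7 (0.43 ± 0.18). Fdft1 overlaps Ctsb and Cyp51 overlaps Akap9 on the opposite strand, and whether counting used strand is not given.

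Of the genes that control the pathway, Srebf1 showed the widest difference among the members that passed in a lot. In the lot 6 female line its libraries held 1.93, 1.30 and 0.286 CPM, and in the male line 13.9, 12.9 and 11.96 CPM. Every library of the other lines held at least 7.25 CPM, so the lot 6 female line stood apart from all 9 other lines. The values were 9.58, 7.53, 17.8 and 8.24 CPM (female) and 12.02, 14.03, 14.9 and 9.01 CPM (male) in lot 7, and 16.5, 19.2, 15.5 and 21.3 CPM and 20.7, 15.8, 17.4 and 11.8 CPM in lot 8. Lot 11 had 11.9, 7.25, 14.6 and 11.3 CPM (female) and 10.1, 15.5, 18.6 and 19.2 CPM (male), and lot 12 15.3, 13.1 and 8.76 CPM and 10.7, 10.98 and 10.9 CPM. Within these 4 lots the libraries of both sexes overlapped. Srebf1 overlaps Rai1 on the opposite strand. In lot 6 the means were 1.17 ± 0.827 and 12.9 ± 0.966 CPM (SD, n = 3). The log2 ratio was -3.42 ± 0.40 (edgeR adjusted p = 1.9e-08), and it ranged from -4.0 to -2.98 with each library left out. The test of differences between lots gave an edgeR adjusted p of 3.31e-06, and 0.477 without lot 6. Srebf2 passed in no comparison, with line means of 10.7 to 14.7 CPM, and in lot 6 it was at 14.6 ± 2.89 CPM in the female and 13.6 ± 3.17 CPM in the male line (SD, n = 3).

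Scap and Insig2, an escort and an anchor of the SREBPs, differed in the same lots and in opposite directions. Scap was lower in the female line of lot 6, at 33.2, 32.7 and 36.5 CPM against 49.1, 64.6 and 44.1 CPM (-0.62 ± 0.15, edgeR adjusted p = 0.00174). In lot 7 it was at 37.1, 37.6, 32.3 and 38.8 CPM in the female and 57.2, 53.8, 60.2 and 50.3 CPM in the male line (-0.60 ± 0.13, edgeR adjusted p = 0.00152). Neither lot overlapped, and both calls passed with each library left out. In lot 11 the order was the other way, without passing (0.41 ± 0.13, edgeR adjusted p = 0.0675), and the difference between lots had an adjusted p of 0.000108. Scap lies on chromosome 9, where 500 genes had a mean log2 CPM of 2 or more. In lot 7 their median log2 ratio was -0.263 and 75.8% were below 0, against a median of -0.0076 over all such genes. In lot 6 the chromosome 9 median was 0.0173. The part of the lot 7 shift in the Scap call was not tested.

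Insig2 was higher in the female line of lot 7, at 20.1, 22.6, 19.99 and 23.9 CPM against 10.9, 6.94, 9.53 and 11.6 CPM (1.15 ± 0.25, edgeR adjusted p = 0.00132). The means of lot 7 were 21.6 ± 1.90 and 9.76 ± 2.08 CPM (SD, n = 4). In lot 6 its libraries held 25.3, 21.8 and 19.1 CPM (female) and 12.2, 12.04 and 13.3 CPM (male), again without overlap (0.82 ± 0.28, edgeR adjusted p = 0.0265). That lot 6 call was lost in 5 of the 6 fits with a library left out, with adjusted p of up to 0.103. In the other lots the Insig2 libraries overlapped. They held 11.9, 10.7, 10.9 and 22.7 CPM (female) and 19.8, 13.7, 17.02 and 17.5 CPM (male) in lot 8, and 12.04, 15.2, 9.39 and 18.1 CPM and 14.2, 15.2, 14.02 and 17.3 CPM in lot 11. Lot 12 held 11.97, 14.1 and 25.3 CPM (female) and 16.01, 14.7 and 24.9 CPM (male), with replicate 3 highest in both. Insig1, the form whose gene is itself an SREBP target, passed between the sexes in no lot.

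Neither sterol transport gene passed within a lot. Abca1 came nearest in lot 8, at 3.10, 5.02, 4.19 and 6.86 CPM in the female and 1.90, 1.93, 0.383 and 0.356 CPM in the male line (2.07 ± 0.71, edgeR adjusted p = 0.0512). The libraries of that lot did not overlap. In lot 6 it was at 2.83, 4.18 and 3.86 CPM (female) and 1.67, 1.42 and 0 CPM (male), and in lot 7 at 0.196, 1.75, 2.65 and 0.841 CPM and 1.08, 1.88, 1.75 and 0.139 CPM. In lot 12 it was at 1.496, 2.53 and 3.71 CPM (female) and 1.39, 1.14 and 0.745 CPM (male), and lot 7 was the lot with overlap. In lot 11 it was at 2.01, 2.19, 3.65 and 1.55 CPM against 0.474, 0.345, 0.947 and 0.623 CPM (1.95 ± 0.74, edgeR adjusted p = 0.15), and in lot 6 the log2 ratio was 1.82 ± 0.81 (edgeR adjusted p = 0.0934). The nearest Abca1 libraries of lot 12, at 1.496 CPM (female) and 1.39 CPM (male), held 10 and 6 counts. The share of all genes without overlap between the sexes was computed in no lot. Stard4, a carrier of cholesterol between membranes, had line means from 12.7 to 26.04 CPM.

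**Figure D3:**
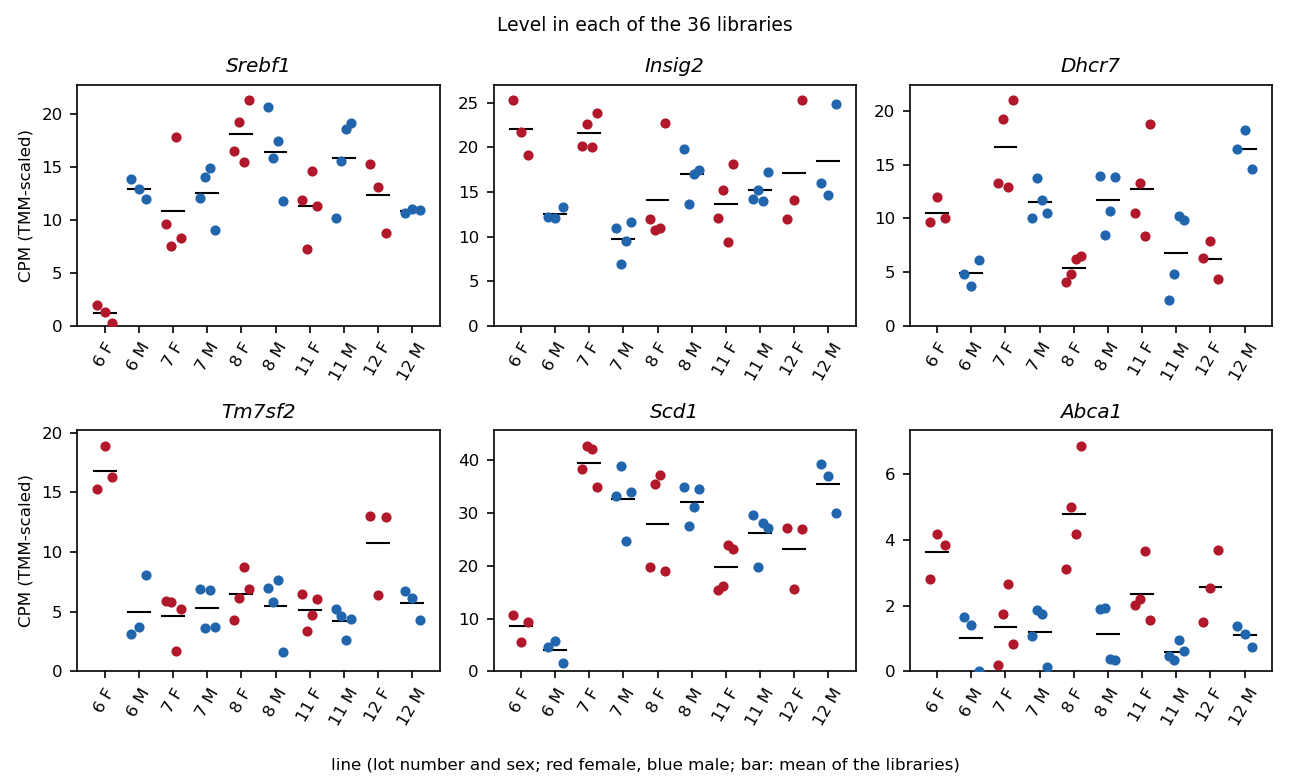
Level in CPM of 6 members in each of the 36 libraries, by line (red, female; blue, male; bar, mean of the line). Srebf1 lies under 2 CPM in the lot 6 female line only, Scd1 under 11 CPM in both lot 6 lines, and Dhcr7 changes its order of the sexes between lots.

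In the fatty acid branch, 3 of 6 members passed in lot 6, where 27.6% of all genes did, and none in the other lots, where 3.8 to 11.4% did. Acly, the citrate lyase that supplies acetyl-CoA to both branches, was at 43.1, 40.9 and 50.2 CPM in the lot 6 female line and 81.8, 77.4 and 74.7 CPM in the male line (-0.80 ± 0.15, edgeR adjusted p = 9.61e-05). Scd2 was lower there too, at 60.2, 61.7 and 44.7 CPM against 112, 106 and 90.4 CPM (-0.89 ± 0.28, edgeR adjusted p = 0.0147). Neither gene overlapped between the 2 lines, but Scd2 lost its call without female replicate 3 (adjusted p 0.0812) or male replicate 1 (0.0506), and under scaling by library totals (0.0988). Acaca, acetyl-CoA carboxylase, and Fasn, fatty acid synthase, had log2 ratios of -0.62 ± 0.39 and -0.42 ± 0.36 in lot 6 and did not pass. The median over the 6 members was -0.52 in lot 6, with 2 above 0 and 4 below. It was 0.37 over the 17 sterol synthesis enzymes tested and 0.06 over all genes. Of the 17 enzymes 4 (23.5%) passed as higher and none as lower, beside 13.5% and 14.0% of all genes. The 6 tested enzymes that lead to farnesyl diphosphate had a median of 0.54, all above 0. The 11 that lead from squalene to cholesterol had a median of 0.11, with 7 above 0 and 4 below.

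Scd1 went the other way, with 10.7, 5.62 and 9.29 CPM in the female and 4.63, 5.67 and 1.64 CPM in the male line of lot 6 (1.12 ± 0.33, edgeR adjusted p = 0.00996). Female replicate 2 lay below male replicate 2, so the groups overlapped, and the call was lost without female replicate 1 (adjusted p 0.0655) or male replicate 3 (0.123). Both lot 6 lines were far below the rest, with means of 8.52 ± 2.60 and 3.98 ± 2.09 CPM (SD, n = 3). The other lots held 38.3, 42.7, 42.2 and 34.97 CPM (female) and 33.3, 38.9, 24.8 and 34.1 CPM (male) in lot 7, and 19.8, 35.5, 37.3 and 19 CPM and 35.02, 27.5, 31.2 and 34.6 CPM in lot 8. Lot 11 had 15.4, 16.1, 24 and 23.3 CPM (female) and 29.7, 19.8, 28.03 and 27.2 CPM (male), and lot 12 27.2, 15.6 and 26.9 CPM and 39.2, 37.1 and 30.1 CPM. In lot 12 the log2 ratio was -0.61 ± 0.28 (edgeR adjusted p = 0.277). No library outside lot 6 was below 15 CPM, whereas Scd2, which lies on the same chromosome, was not low in the lot 6 male line. The test over the 10 lines gave Scd1 an edgeR adjusted p of 3.38e-10, the smallest of all members.

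Srebf1, Acly, Acaca and Fasn lie on chromosome 11 of GRCm38, where most genes had lower values in the lot 6 female than in the lot 6 male line. Over the 733 genes of this chromosome whose mean log2 CPM was 2 or more, the median log2 ratio was -0.328 and 70.0% were below 0, against a median of 0.00724 over all such genes. Around Srebf1 (chromosome 11, 60199089 to 60222581), 30 genes within 1 Mb had a median of -0.455, and 11 of the 12 that passed were lower. The 41 genes within 1 Mb of Fasn had a median of -0.46, the 29 around Acly -0.164 and the 17 around Acaca -0.431. The Srebf1 ratio of -3.42 lies well below these medians, the Acly ratio of -0.80 also lies below, and those of Fasn and Acaca lie near them. Single neighbours ranged from -4.41 to 1.03 around Srebf1, -2.37 to 1.65 around Acly, -1.51 to 0.819 around Fasn and -0.981 to 3.63 around Acaca. Each of the 4 member ratios thus lies within the range of its neighbours. Chromosomes 10 and 14 had lower medians still, -0.591 and -0.674, and their members Lss and Fdft1 had log2 ratios of 0.37 ± 0.45 and -0.02 ± 0.26 without passing. Chromosome 19, with Scd1, Scd2 and Tm7sf2, had a median of 0.0354. Markers of other cell types also differed between the 2 lines. The pericyte and smooth muscle list summed to 15350 to 17510 CPM in the female and 4247 to 5623 CPM in the male libraries of lot 6. It rested on 2 of 8 genes, Acta2 and Cnn1, with Kcnj8 and Abcc9 at 0 and Myh11 at 0.175 CPM. The fibroblast list, with 5 of 7 genes over 1 CPM, summed to 56.0 to 102 CPM in the female and 660.0 to 737 CPM in the male libraries. The part of these differences in the member results was not tested.

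The sex difference itself varied between lots for 12 of 30 members (40%) by edgeR's quasi-likelihood test, beside 29.9% of all genes. They were Acat2, Mvk, Mvd, Sqle, Cyp51, Ebp and Dhcr7 of the sterol enzymes, Srebf1, Scap and Insig2 of the control genes, and Acly and Scd1 of the fatty acid branch. Without lot 6 the count was 7, and Mvd, Cyp51, Srebf1, Acly and Scd1 were lost. Over all genes it went from 3643 to 2003 in that fit. Acat2 and Sqle did not pass without lot 8, with adjusted p of 0.858 and 0.83, and Insig2 did not without lot 7, with 0.134.

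Further genes of the 2 routes, from lists on sterol and isoprenoid synthesis, sterol export, and fatty acid activation, elongation and storage, were read beside the members. In lot 6, 8 of 24 tested fatty acid genes (33.3%) passed, 5 of them lower in the female line, a share near the 27.6% of all genes called in that lot. Fads3, a desaturase-family gene, was at 3.74 ± 0.953 CPM in the female and 52.6 ± 3.98 CPM in the male line (SD, n = 3; log2 ratio -3.80 ± 0.25). Slc25a1, the mitochondrial citrate carrier, was at 9.24 ± 2.26 and 37.6 ± 7.05 CPM (-2.03 ± 0.32). Acsl5, an acyl-CoA synthetase, had a log2 ratio of -1.18 ± 0.18, and Fads1, the delta-5 desaturase, 0.77 ± 0.17. Of 13 sterol and isoprenoid genes 2 passed in lot 6, Tmem97 (-0.82 ± 0.16) and Dhdds (0.66 ± 0.21), and of 7 export genes 1, Lpcat3 (0.85 ± 0.26), shares of 15.4% and 14.3%, below that background. In lot 7 Mid1ip1, an activator of acetyl-CoA carboxylase, was higher in the female line (1.02 ± 0.18) and Acsl5 (-0.50 ± 0.16) and Acat1 (-0.61 ± 0.14), the mitochondrial thiolase, were lower. These were 2 of 24 fatty acid genes (8.33%) and 1 of 13 sterol and isoprenoid genes (7.69%), beside 10.8% of all genes. In lot 8, where 11.4% of all genes passed, 4 of 24 fatty acid genes (16.7%) did, namely Elovl7, Fads3, Acsl4 and Elovl6. Elovl7, an elongase, had 77 counts over the female libraries and 2 over the male ones. Of 7 export genes 1 (14.3%) passed in that lot, Npc2, a lysosomal cholesterol carrier (0.46 ± 0.11). Acsl5 (-0.89 ± 0.16) and Hacd3 (0.49 ± 0.14), 2 of 24 fatty acid genes (8.33%), passed in lot 11, beside 4.33% of all genes. In lot 12 none of the 44 tested passed, beside 3.8% of all genes.

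A group of 5 members also differed between libraries of the same line. In lots 7, 8 and 11, replicate 4 was compared with replicates 1 to 3 within each of 6 lines. By edgeR's quasi-likelihood test 5 of 29 members (17.2%) passed, all higher in replicate 4: Fasn, Scd2, Hmgcs1, Insig1 and Msmo1. Over all 11262 genes 3.57% passed, 1.51% as higher and 2.06% as lower. The labels give no reason for the additional library, and the comparison was proposed with earlier results of these data in view. Over 5037 genes, the deviations of replicate 4 from the line means correlated between the sexes, at 0.265 in lot 7, 0.302 in lot 8 and 0.253 in lot 11. The 6 lines are therefore not 6 separate repeats, although the p-values treat the libraries as separate.

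Fasn was at 88.6 to 112 CPM in the 6 replicate 4 libraries, with a median of 95.1, and at 28.4 to 76.9 CPM in the 18 others, with a median of 53.4. No value overlapped. Line by line, it was 28.4, 42.7, 44.4 and 92.97 CPM and 59.3, 54.1, 53.8 and 97.3 CPM in the female and male lines of lot 7, with replicate 4 last in each list. Lot 8 held 59.2, 61.9, 52.96 and 92.5 CPM and 69.8, 76.8, 44.8 and 104 CPM, and lot 11 42.97, 64.9, 48.9 and 112 CPM and 47.4, 62.4, 50.6 and 88.6 CPM. Replicate 4 was thus the highest in 6 of 6 lines, as in 0.604% of all genes, and the log2 ratio was 0.89 ± 0.10 (edgeR adjusted p = 9.32e-07).

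Scd2 was also highest in replicate 4 of all 6 lines, by the least in the lot 7 female line. Its values were 90.3 to 180.3 CPM, with a median of 122.5, against 43.7 to 119 CPM, with a median of 85.1, and overlapped between lines (0.60 ± 0.093, edgeR adjusted p = 0.000127). Hmgcs1 was at 26.7 to 48.4 CPM, with a median of 39.3, against 12.9 to 35.97 CPM, with a median of 21.7 (0.76 ± 0.12, edgeR adjusted p = 0.000193). It was highest in replicate 4 of 5 lines, all but the male line of lot 7, and 2.34% of all genes were highest in at least 5 of the 6 lines. Insig1 was at 11.5 to 24.8 CPM against 3.63 to 20.04 CPM, with medians of 17.7 and 8.42, and was highest in 6 of 6 lines (0.94 ± 0.20, edgeR adjusted p = 0.00513). Msmo1 was at 127 to 227 CPM against 115 to 168 CPM and was highest in 5 of 6 lines (0.33 ± 0.082, edgeR adjusted p = 0.0176). The remaining members ranged in log2 ratio from -0.66 for Idi1 to 0.47 for Lss, Stard4 and Acaca, and 20 of all 29 were above 0, with a median of 0.23. Ebp went the other way, being lowest in replicate 4 of 5 lines (-0.26 ± 0.082, edgeR adjusted p = 0.0773). Neither Srebf1 (-0.13 ± 0.18) nor Srebf2 (-0.08 ± 0.17) passed.

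**Figure D4:**
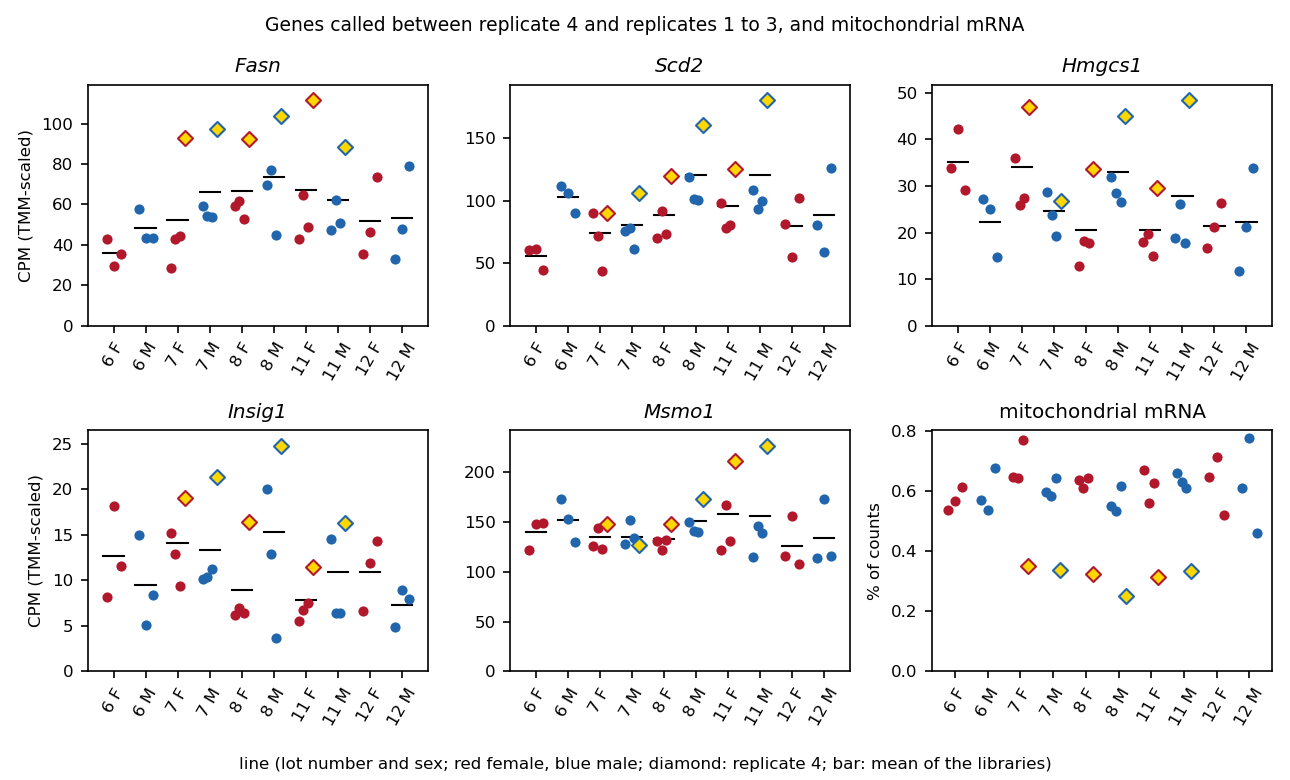
Level in CPM of the 5 members called between replicate 4 and replicates 1 to 3, and mitochondrial mRNA in % of counts, in each library by line (red, female; blue, male; diamonds, replicate 4; bars, mean of the line). Fasn diamonds lie between 88.6 and 112 CPM, above all other libraries, and mitochondrial mRNA diamonds between 0.251 and 0.349%, below all others.

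Fasn, Scd2 and Hmgcs1 passed with each of the 3 lots left out. Without lot 8 the count was 3, Insig1 having an adjusted p of 0.0523 and Msmo1 of 0.122, and Msmo1 also failed without lot 11 (0.439) and Insig1 without lot 7 (0.0581). Under scaling by library totals alone 9 members passed as higher, and the share of all calls that were higher rose from 42.3 to 67.4%. DESeq2 called 9 as well, and 640 of all genes, against 402 by edgeR. Mitochondrial mRNA made up 0.251 to 0.349% of counts in replicate 4 and 0.534 to 0.770% in replicates 1 to 3, lowest in replicate 4 of all 6 lines. Of 10 proliferation genes 2 (20%) passed, beside 3.57% of all genes, namely Top2a (0.34 ± 0.08) and Mki67 (0.45 ± 0.11), both higher. In the whole list 5 genes were above 0 and 5 below, with a median of -0.01. The summed list, at 2311 to 2746 CPM against 1645 to 2787 CPM, overlapped. Whether these differences bear on the member results was not tested. Among the further genes, 1 of the 24 tested on fatty acids (4.17%) passed, beside 3.57% of all genes. It was Elovl1, lower in replicate 4 (-0.33 ± 0.059). None passed among 13 on sterols and isoprenoids and 6 on export.

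A similar pattern in lot 12 was noticed after its values had been seen and is given as a description. There replicate 3 was the highest library of both lines for Fasn, at 35.5, 46.2 and 73.6 CPM in the female and 32.95, 48.05 and 79.1 CPM in the male line. Scd2 held 81.4, 54.7 and 102 CPM and 80.5, 58.9 and 126 CPM, and Hmgcs1 16.6, 21.1 and 26.4 CPM and 11.8, 21.1 and 33.97 CPM, with replicate 3 again highest. Insig1 held 6.58, 11.9 and 14.3 CPM and 4.87, 8.98 and 7.90 CPM and Msmo1 116, 156 and 108 CPM and 114, 173 and 116 CPM, so Msmo1 peaked in replicate 2 in both lines and Insig1 in the male line. Mitochondrial mRNA was lowest in replicate 3 of both lines, at 0.520% and 0.461%, against 0.608 to 0.775% in the other 4 libraries.

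Correlations were also computed within each branch across the 10 line means. Pairs of sterol synthesis enzymes had a median Pearson r of 0.377 over 120 pairs of 16 genes, and pairs of fatty acid genes 0.59 over 10 pairs of 5 genes, against -0.000849 over all pairs of the 8780 genes whose mean log2 CPM was 2 or more. These are descriptions, since all pairs share the same 10 lines and libraries. Of the 5 fatty acid genes, Acly, Acaca and Fasn lie on chromosome 11, where the median log2 ratio of female to male in lot 6 was -0.328. The others, Scd1 and Scd2, both lie on chromosome 19. Fasn and Scd2 were also higher in replicate 4, which entered the means of only some lines. The part of shared chromosomes and of replicate 4 in these correlations was not tested.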

How the data were processed

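The samples were 36 BRB-seq libraries of 10 lines, grouped by the lot and sex in their titles, and all columns of the table were matched to a sample. The authors deposited 1 table of raw counts per gene. Per the submitters' processing notes cutadapt 2.10, STAR 2.7.6a, Subread 2.0.2 and the genome GRCm38 were used. Whether molecular identifiers were collapsed, the strand setting and the annotation release are not given in the sources used here. Gene names came from GENCODE M21, which matched 45143 of 46078 identifiers, and the unmatched ones held 0.0295% of counts.

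Library sizes were scaled by TMM (factors 0.883 to 1.13), genes were filtered with filterByExpr, and edgeR 4.0.16 (R 4.3.3) fitted quasi-likelihood models over all genes tested, with Benjamini-Hochberg adjustment and a threshold of 0.05. Within-lot contrasts, the test of differences between lots and the test over 10 lines came from 1 fit with a coefficient per line. The comparison across lots used counts summed per line with the lot as a block. Replicate 4 was compared with replicates 1 to 3 within lines. No 2 libraries were identical. DESeq2 1.42.0, limma 3.58.1, other scalings and filters, a replicate block and left-out libraries or lots served as alternatives. The methods were run on simulated counts in which all libraries shared 1 mean profile, apart from 200 changed genes, with a dispersion of 0.05. Lines and lots did not otherwise differ there, so that run does not measure error rates with 1 line per sex and lot. Tables and figures used Python 3.11.15 with pandas 2.3.3, numpy 2.4.6 and matplotlib 3.10.9. The 3-count floors of 0.385 to 0.716 CPM cover counting error only.

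The members and lists were chosen with earlier results of these data known, and the motifs after the table was seen. All members are named. Values are given for those that passed or, where fewer than 4 did, for the 4 of smallest p, and every library for those with an absolute log2 ratio of at least 1 in a lot where they passed. Up to 4 genes of each further list that passed are named, by smallest p. Library values beyond this rule are given for members that a comparison turns on, chosen after they were seen. Replicate numbers were checked for pairing on 5037 genes by the correlation of deviations from the line means. Same-numbered libraries of both sexes correlated at 0.392 to 0.528 in lot 12, over 0.1 in all 3 pairs, and in no other lot were all pairs over 0.1. With the replicate block, Dhcr7 (-1.43, edgeR adjusted p = 0.00895) and Mvk (0.75, 0.0159) passed in lot 12, as they did without it.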

Additional observations from a re-analysis of the deposited data

Results flagged for a closer look

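Among 4 libraries of a line or 5 line means of a sex, a value was picked out where its gap to the nearest other was large against the whole range (Dixon's 95% limit). Chance alone picks out about 5% of groups, and 15 of 232 were picked out here, 9 of them by replicate 4. In replicate 4, Fasn was at 97.3 CPM in the lot 7 male line, against 53.8 to 59.3 in the others, and Insig1 at 21.3 CPM there, against 10.2 to 11.3. In the lot 8 female line Insig1 was at 16.4 CPM, against 6.2 to 6.98, Insig2 at 22.7 CPM, against 10.7 to 11.9, and Scap at 69.8 CPM, against 51.5 to 53.4. Sqle was at 98.4 CPM in the lot 7 female line, against 77.2 to 79.2, and Acat2 at 99.98 CPM in the lot 11 male line, against 67.1 to 70.1. Low replicate 4 values in the lot 7 male line were Mvk at 50.6 CPM, against 67.3 to 70.7, and Sc5d at 30.3 CPM, against 43.8 to 46.5.

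Of the other replicates, Tm7sf2 was at 1.72 CPM in replicate 3 of the lot 7 female line, against 5.21 or more in the others, and Nsdhl at 14.4 CPM in replicate 1 of the lot 11 female line, against 25.4 to 27.1. Idi1, near the counting floor, was at 2.45 CPM in replicate 2 of the lot 7 female line, against 0 to 0.336, and at 2.62 CPM in replicate 2 of the lot 8 female line, against 1.82 to 1.93. The lot 6 female line had a mean Sqle of 128.8 CPM, against 67.1 to 84.5 in the other female lines, and a mean Acly of 44.8 CPM, against 69.6 to 75.0.

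The female-to-male difference varied between lots for 12 members by edgeR's quasi-likelihood test of the interaction. The adjusted p was 3.31e-06 for Srebf1, 3.56e-05 for Dhcr7, 0.000108 for Scap, 0.00016 for Ebp, 0.0026 for Acly, 0.00323 for Insig2, 0.00457 for Mvk, 0.00928 for Mvd, 0.0103 for Scd1, 0.0109 for Acat2, 0.0279 for Sqle and 0.0478 for Cyp51. No explanation of these values was tested.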

How the results depend on the processing

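Of 798 recomputed values for single members, 706 kept their direction and their side of the threshold, 81 lost the call, 11 gained one and none changed sign. These values cover, for each comparison, only the members that passed or, where fewer than 4 did, the 4 of smallest p. Calls gained by other members are not among the 11, so losses and gains cannot be weighed against each other. Across lots 1 member passed with limma voom. In lot 8 the count was 8 with no filter and 7 with the replicate block, where 1410 and 1708 of all genes were called, against 1388. In lot 11 it was 1 with library totals only, with genes kept only from a mean log2 CPM of 2 on, and with DESeq2, and 2 with the replicate block. Over all genes these fits called 534, 460, 643 and 668, against 527. In lot 12 it was 0 with the libraries of the lot alone. For replicate 4 it was 9 with library totals only and 9 with DESeq2, where 408 and 640 of all genes were called, against 402. Leaving out each library in turn gave 6 to 8 in lot 6, 3 to 4 in lot 7, 1 to 6 in lot 8, 0 to 2 in lot 11 and 0 to 2 in lot 12. Over all genes these ranges were 2639 to 2863, 974 to 1130, 1035 to 1318, 380 to 491 and 228 to 731. Leaving out each lot gave 7 to 14 for differences between lots, 12 to 17 over the 10 lines and 3 to 4 for replicate 4. Over all genes these ranges were 2003 to 3860, 4920 to 5926 and 115 to 264. Without the replicate 4 libraries lot 7 had 3, lot 8 had 3 and lot 11 had 0, where 878, 1070 and 399 of all genes were called. Causes were not tested, beyond the fewer libraries in fits that leave some out.

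Over all genes, the comparison across lots called 3 with no filter, 1 without the lot block, 1 without the replicate 4 libraries, 56 with DESeq2 and 491 with voom. Lot 7 called 878 without the replicate 4 libraries, and lot 12 called 106 with its libraries alone and 228 to 731 with 1 left out. Without lot 6, 2003 genes differed between lots. For replicate 4, DESeq2 called 640, left-out lots gave 115 to 264, and the replicate block, with the 4 numbers as a factor, 257.

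Same-numbered libraries correlated at -0.118 to 0.116 in lot 6, 0.0346 to 0.265 in lot 7, -0.0339 to 0.302 in lot 8 and 0.0955 to 0.253 in lot 11, so there the numbers are not taken as pairs. Each library correlated best with its own number in lots 11 and 12, and 7 of 8 did in lot 7, 4 of 8 in lot 8 and 2 of 6 in lot 6. The replicate block gave 12 members in lot 6, 4 in lot 7, 2 in lot 12, 15 for differences between lots and 4 for replicate 4. Over all genes it called, in the same order, 3553, 1684, 667, 4000 and 257, against 3354, 1319, 463, 3643 and 402 without it. In lot 11 it called Dhcr7 (1.02, edgeR adjusted p = 0.0461) and Ebp (-0.42, 0.0394). A log2 ratio of a member with few counts, such as Idi1, Lpin1 or Abca1, is limited by depth.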
